A study of Mus musculus with 4 samples.

Results

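Toll-like receptor genes and their helpers were followed in single-cell RNA libraries of brain myeloid cells from APP/PS1 mice. The set holds 10 genes chosen by symbol: the receptors Tlr2, Tlr3, Tlr4, Tlr7, Tlr9 and Tlr13, the co-receptors Cd14, Ly86 (MD-1) and Ly96 (MD-2), and the adaptor Myd88. All 10 symbols were among the 32372 gene features of the deposited matrices, and each passed the filter on low counts in the fits below. Cells positive for CD11b and CD45 were sorted from the left hemisphere after a Percoll gradient, and 4 libraries of 3′-end molecule counts were made from them. Of these, 2 libraries came from APP/PS1:miR-155 cKO mice and 2 from APP/PS1 Control mice, all labelled female and 4 months old. APP/PS1 is a transgenic model of amyloid deposition that all 4 libraries share, and cKO is the labels' name for the mice that lack the microRNA miR-155 conditionally. The Cre driver, the deleted part of the locus and any pooling of animals are not given in the sources used here.

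Toll-like receptors are membrane proteins that bind microbial products and products of damaged cells. Tlr2 works at the cell surface in pairs with Tlr1 or Tlr6 and binds lipoproteins. Tlr4 binds lipopolysaccharide together with Ly96, with Cd14 handing over the ligand, and Ly86 pairs with Cd180, a receptor-like protein related to Tlr4. Tlr3 (double-stranded RNA), Tlr7 (single-stranded RNA), Tlr9 (DNA) and Tlr13 (bacterial ribosomal RNA) sense nucleic acids in endosomes, to which Unc93b1 brings them and where lysosomal proteases trim them. Myd88 passes on the signal of every receptor of the set except Tlr3, towards NF-kB and cytokine genes, while Tlr3 signals through Ticam1 towards interferon genes. In the brain these receptors are found mainly on microglia, the resident macrophages.

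The microRNA named in the genotype has the mature form mmu-miR-155-5p, shown here from RefSeq (GRCm38.p6, chr16:84714143-84714165, plus strand) with its seed, bases 2 to 8, in capitals, because the seed sets which transcripts it can pair with.
mmu-miR-155-5p: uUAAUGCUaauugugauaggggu
The match to this seed, AGCATTA, was in the longest annotated 3′ UTR of 0 of the 10 genes and of 8.33% of 21005 genes with such a UTR. The UTRs of the 10 genes were 77 to 1499 bases long, where the median of all genes was 964 bases.

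Start-site windows of 300 bases (250 before and 50 after the start site, RefSeq, GRCm38.p6) were at hand for Tlr2, Tlr3, Tlr9, Tlr13, Ly86 and Myd88, 6 of the 10 genes. They were searched on both strands for the interferon response motif, written GAAA, then any 2 bases, then GAAA, and for the NF-kB motif by its consensus, since interferon and cytokine states are compared below. The interferon motif was in 3.44% and the NF-kB motif in 8.46% of 32851 windows of all genes. Myd88 held an interferon motif that starts 40 bases before the start site. Tlr2 held 3 NF-kB matches, starting 173, 172 and 8 bases before the start site, the first pair of which overlap, and Tlr3 held 1, starting 211 bases before it. Neither motif was in the windows of Tlr9, Tlr13 and Ly86. The 3 windows with a match are shown with the matched letters in capitals, for Tlr2 (chr3:83841559-83841858, minus strand), Tlr3 (chr8:45410331-45410630, minus strand) and Myd88 (chr9:119339969-119340268, minus strand); a match describes letters only.
Tlr2: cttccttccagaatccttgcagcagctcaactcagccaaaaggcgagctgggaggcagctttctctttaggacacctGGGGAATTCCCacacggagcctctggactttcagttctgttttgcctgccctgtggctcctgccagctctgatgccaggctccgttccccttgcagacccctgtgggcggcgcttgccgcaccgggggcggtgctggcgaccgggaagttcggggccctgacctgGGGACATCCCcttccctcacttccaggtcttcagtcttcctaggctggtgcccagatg
Tlr3: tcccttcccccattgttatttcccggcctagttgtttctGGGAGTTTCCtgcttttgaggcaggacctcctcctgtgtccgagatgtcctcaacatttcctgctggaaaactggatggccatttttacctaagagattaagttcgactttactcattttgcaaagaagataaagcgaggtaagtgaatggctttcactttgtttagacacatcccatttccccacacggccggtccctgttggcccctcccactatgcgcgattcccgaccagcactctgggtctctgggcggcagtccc
Myd88: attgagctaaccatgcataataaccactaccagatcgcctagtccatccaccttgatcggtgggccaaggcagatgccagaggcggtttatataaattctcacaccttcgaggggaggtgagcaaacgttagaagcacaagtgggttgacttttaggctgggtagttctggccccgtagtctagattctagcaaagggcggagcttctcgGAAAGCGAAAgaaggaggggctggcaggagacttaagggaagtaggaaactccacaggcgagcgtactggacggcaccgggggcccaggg

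The cKO libraries held 41214799 and 33130800 UMIs (counted transcript molecules), and the Control libraries 47574406 and 33889598. The filter on barcodes (1000 or more UMIs, 500 or more genes and no more than 10% of UMIs from mitochondria) left 3828 and 2852 in cKO and 4351 and 2909 in Control, and pairs of libraries shared 1 to 4 of them. Likely doublets were then removed, and 12339 cells fell in clusters called microglia-like, in which the microglial markers P2ry12 and Tmem119 were detected. The host transcript of miR-155, Mir155hg, gave 1 and 1 UMIs in cKO against 7 and 11 in Control, which checks little, since the deleted part is not known. Xist, made from the inactive X chromosome of females, had 1873 and 1775 CPM in cKO and 0.432 and 1724 CPM in Control, where CPM is UMIs per 1000000. Control replicate 1 thus goes against its label of female. Tlr7 and Tlr13 are X-linked, and genotype values are given below with and without that library. The file names give cKO replicate 2 a run code of its own, so for that library run and animal cannot be told apart.

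Within microglia-like cells the 10 genes spanned a wide range of levels. Ly86 was at 1989 and 2035 CPM in cKO and 2055 and 1910.4 CPM in Control. Cd14 was at 345 and 333 CPM in cKO and 319.7 and 297 CPM in Control. Both co-receptors stood above all 6 receptors in each library. A CPM counts 3′-end molecules, so gene length does not enter it, although capture may differ between transcripts.

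Tlr7 was the most abundant receptor, with 119 and 116 CPM in cKO and 106 and 95.4 CPM in Control. Tlr2 followed with 103 and 96.9 CPM in cKO and 83.95 and 90.95 CPM in Control. Tlr3 had 86.9 and 93.2 CPM in cKO and 76.7 and 76.8 CPM in Control. Tlr3 overlaps Gm45542 on the other strand, and whether the counting used strand is not given in the sources used here. The order Tlr7, Tlr2, Tlr3, Tlr13 held within each of the 4 libraries, although the ranges of neighbours over the libraries overlapped. Tlr13 had 82.5 and 84.6 CPM in cKO and 72.3 and 70.9 CPM in Control. Ly96, the partner of Tlr4, had 54.1 and 59.6 CPM in cKO and 50.5 and 44.4 CPM in Control. Tlr4 itself was lower than Ly96 in each library, with 41.9 and 43.99 CPM in cKO and 34.9 and 34.2 CPM in Control. It was higher than Myd88 within each library, although the ranges of both over the libraries overlapped. Myd88 had 33.6 and 39.9 CPM in cKO and 28.5 and 25.6 CPM in Control. Tlr9 was the lowest of the 10, at 5.57 and 4.49 CPM in cKO and 5.07 and 4.57 CPM in Control.

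**Figure D1:**
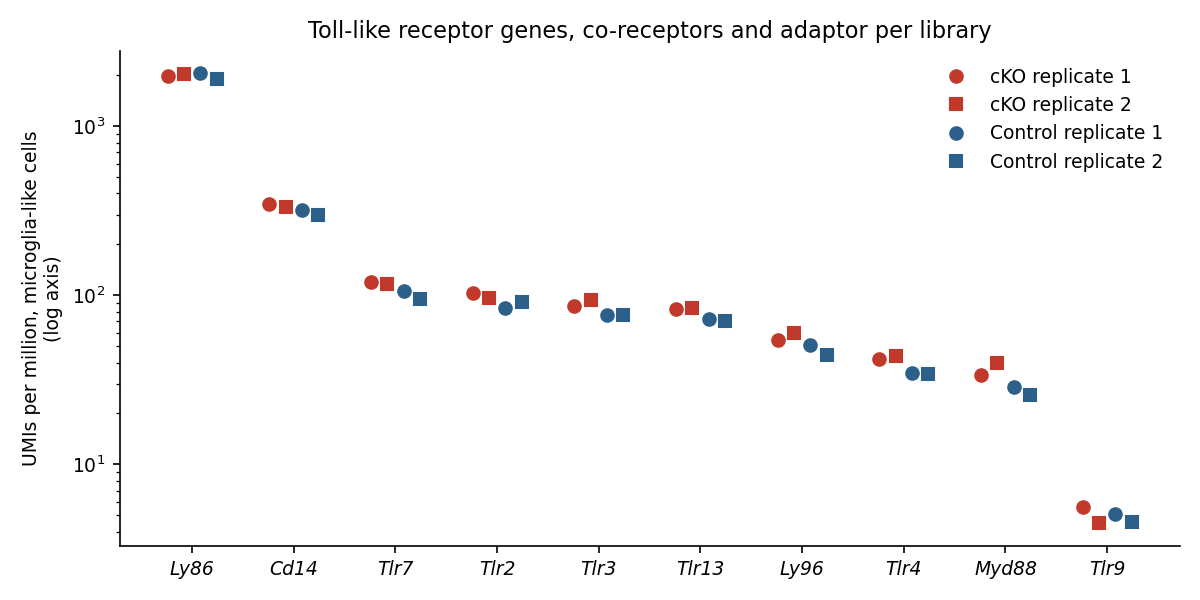
Level of each gene in microglia-like cells of each library, in CPM on a log axis; red points are cKO and blue points Control libraries. Ly86 lies at 1997 CPM and Tlr9 at 4.93 CPM on average, and the libraries of each gene lie close together on this axis.

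At an equal depth of 2000 UMIs per cell, Ly86 was detected in 95.8% ± 0.798 of microglia-like cells and Cd14 in 44.9% ± 1.55 (SD over 4 libraries). Tlr7 was detected in 18.9% ± 1.97, Tlr3 in 15.5% ± 1.35, Tlr13 in 15.01% ± 1.13 and Tlr2 in 14.9% ± 1.19 of cells. Ly96 was detected in 10.3% ± 0.310, Tlr4 in 8.43% ± 1.16, Myd88 in 6.52% ± 0.870 and Tlr9 in 0.928% ± 0.107 of cells. A cell without a UMI at this depth is not shown to lack the transcript.

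Free RNA was read from barcodes with no more than 100 UMIs. Ly86 was at 1997 ± 64.4 CPM in microglia-like cells and 1246 ± 132 CPM in free RNA, and Cd14 at 323 ± 20.5 CPM in the cells and 209.7 ± 16.1 CPM in free RNA (SD, n = 4). Tlr2 was at 93.6 CPM in the cells and 71.7 CPM in free RNA, and Tlr3 at 83.4 CPM in the cells and 65.2 CPM in free RNA. For these 4 genes the range over the libraries in the cells lay above that in free RNA. Tlr7, Tlr13, Ly96, Tlr4, Myd88 and Tlr9 were at 109, 77.6, 52.1, 38.7, 31.9 and 4.93 CPM in the cells, against 107, 68.9, 47.5, 40.7, 29.6 and 4.96 CPM in free RNA. For these 6 genes the ranges overlapped, so none was shown to lie higher in the cells than in free RNA. Within each library Tlr4 was lower in the cells than in free RNA. Its ratios of cells to free RNA were 0.982 and 0.973 in cKO and 0.981 and 0.866 in Control. The other genes of the 6 were higher in the cells in some libraries and lower in others. A cluster of 22 cells led by Ttr, a choroid plexus transcript, is given as another cell type. Microglial markers were detected in it too, so it is not shown that its cells lack the genes. Median depths were 6720 UMIs in microglia-like cells and 11172.5 UMIs in Ttr-led cells. Tlr2 was at 93.3 CPM (91.5 to 95.1) in microglia-like cells, against 37.6 CPM (18.04 to 69.2) in Ttr-led cells, and Tlr7 at 109.7 CPM (108 to 112) in microglia-like cells, against 33.9 CPM (15.5 to 64.3) in Ttr-led cells, where ranges in parentheses are 95% Poisson intervals that cover counting error only. Ly86 was detected in 61.9% and Cd14 in 33.3% of Ttr-led cells at 2000 UMIs.

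Related receptors outside the set were singled out after their values were seen. Tlr1 and Tlr6, the partners of Tlr2, averaged 24.1 ± 2.03 and 15.7 ± 1.46 CPM (SD, n = 4). Tlr12 averaged 30.04 ± 2.06 CPM and Tlr5 7.13 ± 0.945 CPM, while Tlr8 gave 2 UMIs and Tlr11 22 UMIs over all microglia-like cells. Cd180, the partner of Ly86, was higher than each receptor of the set, at 266 and 219.6 CPM in cKO and 288 and 321 CPM in Control.

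Small clusters of other cells are given as a description, because the same genes drew the clusters. In 32 cells called border-associated macrophage-like from Mrc1, Pf4 and Ms4a7, and led by genes of MHC class II, Cd14 was at 406 CPM (351 to 467), against 324 CPM (321 to 328) in microglia-like cells. These cells numbered 7 and 8 in cKO and 9 and 8 in Control. In cKO replicate 1 Cd14 went the other way, at 290 CPM in them and 345 CPM in microglia-like cells. Ly86 was at 1549 CPM (1439 to 1665) there, against 2003 CPM (1995 to 2011). Tlr3 was at 54.4 CPM (35.5 to 79.7), against 83.04 CPM (81.4 to 84.7), and the intervals of Tlr2, Tlr7 and Tlr13 covered the microglia-like value. In a cluster of 22 cells led by S100a9 and S100a8 there was no UMI of Tlr3, with an upper limit of 16.8 CPM.

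Microglia take on distinct expression states around amyloid, and the dependence of the 10 genes on 3 of them was compared next. A cell was called MGnD-high (MGnD, the neurodegenerative microglial phenotype) when 3 or more of 12 genes (among them Spp1, Cst7, Itgax and Clec7a) had a UMI at 2000 UMIs per cell. Interferon-high cells had 3 or more of 12 genes such as Ifit3, Isg15 and Rsad2, and cytokine-high cells 3 or more of 8 genes such as Tnf, Ccl3, Ccl4 and Cd83. None of the 10 genes is a state gene. The MGnD-high share was 17.4% and 9.66% in cKO and 22.1% and 22.1% in Control. Interferon-high cells made up 6.01% and 6.90% in cKO and 6.04% and 6.05% in Control, and cytokine-high cells 16.4% and 16.003% in cKO and 12.1% and 17.99% in Control. The thinned UMIs of the state cells and of the other microglia-like cells were summed per library and compared by edgeR's quasi-likelihood test with the library as a block. A gene is called at a Benjamini-Hochberg adjusted p of at most 0.05 over all tested genes. Each state comparison was run in 15 settings, the fit just described and 14 alternatives, and calls that depend on them are given beside each gene. In such sums, more cells with a transcript and more transcript per cell cannot be told apart.

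In MGnD-high cells Tlr2, Ly86 and Cd14 rose, and Tlr3, Tlr4, Ly96, Myd88, Tlr13 and Tlr9 fell. Of all 10747 genes tested, 38.5% were called, 20.9% higher and 17.7% lower, and of the 10 genes 3 were called higher and 6 lower. With total UMIs in place of TMM, 1284 genes were called higher and 4678 lower, where TMM gave 2244 and 1897, and of the 10 genes 2 were called higher and 7 lower. In scaled CPM the same 3 genes were higher in every library, against 22.8% of all genes, and the same 6 lower in every library, against 24.5% of all genes. The median log2 fold change was -0.39 for the 10 genes and -0.033 for all tested genes. Scaled CPM are CPM corrected with TMM factors.

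Tlr2, the lipoprotein receptor, had 169.6 and 164 scaled CPM in MGnD-high cells of cKO and 137 and 139 in those of Control, against 79.02 and 70.3 in the other cells of cKO and 62.6 and 74.1 in those of Control. The groups did not overlap, with a log2 fold change of 1.09 (SE 0.078, edgeR adjusted p = 1.48e-14). At equal depth it was detected in 20.98% ± 1.78 of MGnD-high cells and 13.6% ± 1.23 of the others (SD, n = 4).

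Ly86, the partner of Cd180, averaged 2883 ± 137 scaled CPM in MGnD-high cells and 1651 ± 32.3 in the others (SD, n = 4). Its lowest MGnD-high value was 2720.4 and its highest value in the others 1678, so the groups did not overlap (log2 0.80, SE 0.037, adjusted p = 2.39e-20). Cd180 was also called higher, at 0.55 (adjusted p = 4.73e-09). Cd14 had 466 and 396 scaled CPM in MGnD-high cells of cKO and 378 and 332 in those of Control, against 307 and 289.9 in the other cells of cKO and 298 and 305 in those of Control. The groups did not overlap (log2 0.39, SE 0.060, adjusted p = 1.44e-06), but the rise of Cd14 depends on the scaling. On total UMIs, which shift the median of all genes by -0.31, Cd14 was at 0.077 (adjusted p = 0.274), and it was detected in 42.6% ± 3.81 of MGnD-high cells and 45.5% ± 0.981 of the others. On that scale Tlr2 and Ly86 were still called, at 0.78 and 0.50.

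Tlr3, the double-stranded RNA receptor, had 53.8 and 51.7 scaled CPM in MGnD-high cells of cKO and 48.4 and 44.7 in those of Control, against 93.1 and 88.998 in the other cells of cKO and 84.1 and 88.1 in those of Control. The groups were apart in every library (log2 -0.83, SE 0.10, adjusted p = 9.05e-09). It was detected in 8.40% ± 0.827 of MGnD-high cells and 17.04% ± 0.932 of the others (SD, n = 4). Tlr4 averaged 25.96 ± 3.55 scaled CPM in MGnD-high cells and 44.8 ± 5.69 in the others (log2 -0.69, SE 0.14, adjusted p = 1.70e-04). Tlr4 had 30 and 11 UMIs in MGnD-high cells of cKO and 44 and 21 in those of Control. Its partner Ly96 averaged 39.4 ± 5.92 scaled CPM in MGnD-high cells and 54.6 ± 1.19 in the others (log2 -0.49, SE 0.12, adjusted p = 0.00111). Neither gene's groups overlapped, and at 1000 UMIs per cell Ly96 was at -0.22 (adjusted p = 0.463).

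Myd88, the shared adaptor, averaged 20.9 ± 6.47 scaled CPM in MGnD-high cells and 32.7 ± 3.84 in the others (SD, n = 4; log2 -0.56, SE 0.16, adjusted p = 0.00607). It was lower in MGnD-high cells in 4 of 4 libraries, with the lowest value, 12.9, in cKO replicate 2. Its values in MGnD-high cells rest on only 23 and 6 UMIs in cKO and 30 and 27 in Control. The call was lost without cKO replicate 1 (-0.49, adjusted p = 0.0617), with DESeq2 (-0.59, adjusted p = 0.0877) and at 1000 UMIs per cell (-0.49, adjusted p = 0.185). Tlr13, the receptor for bacterial ribosomal RNA, averaged 66.2 ± 7.13 scaled CPM in MGnD-high cells and 79.4 ± 3.21 in the others (log2 -0.30, SE 0.097, adjusted p = 0.0129). Tlr9, the DNA receptor, was called at -1.51 (SE 0.53, adjusted p = 0.0223) on only 1 and 0 UMIs in MGnD-high cells of cKO and 2 and 4 in those of Control, against 27 and 24 in the other cells of cKO and 40 and 19 in those of Control. The calls of Tlr13 and Tlr9 ended without cKO replicate 1 (adjusted p = 0.0944 and 0.0920), without Control replicate 1 (0.106 and 0.187), with DESeq2 (0.202 and 0.158) and with 1 state gene more (0.169 and 0.232), and that of Tlr13 also at 1000 UMIs (0.0882). Tlr7, the single-stranded RNA receptor, had 96.4 and 99.1 scaled CPM in MGnD-high cells of cKO and 81.1 and 106 in those of Control, against 116 and 106 in the other cells of cKO and 99.4 and 89.8 in those of Control. It was not called (log2 -0.13, SE 0.090, adjusted p = 0.285), but it was called lower without Control replicate 2 (-0.25, adjusted p = 0.0437) and on total UMIs (-0.44, adjusted p = 6.75e-05).

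**Figure D2:**
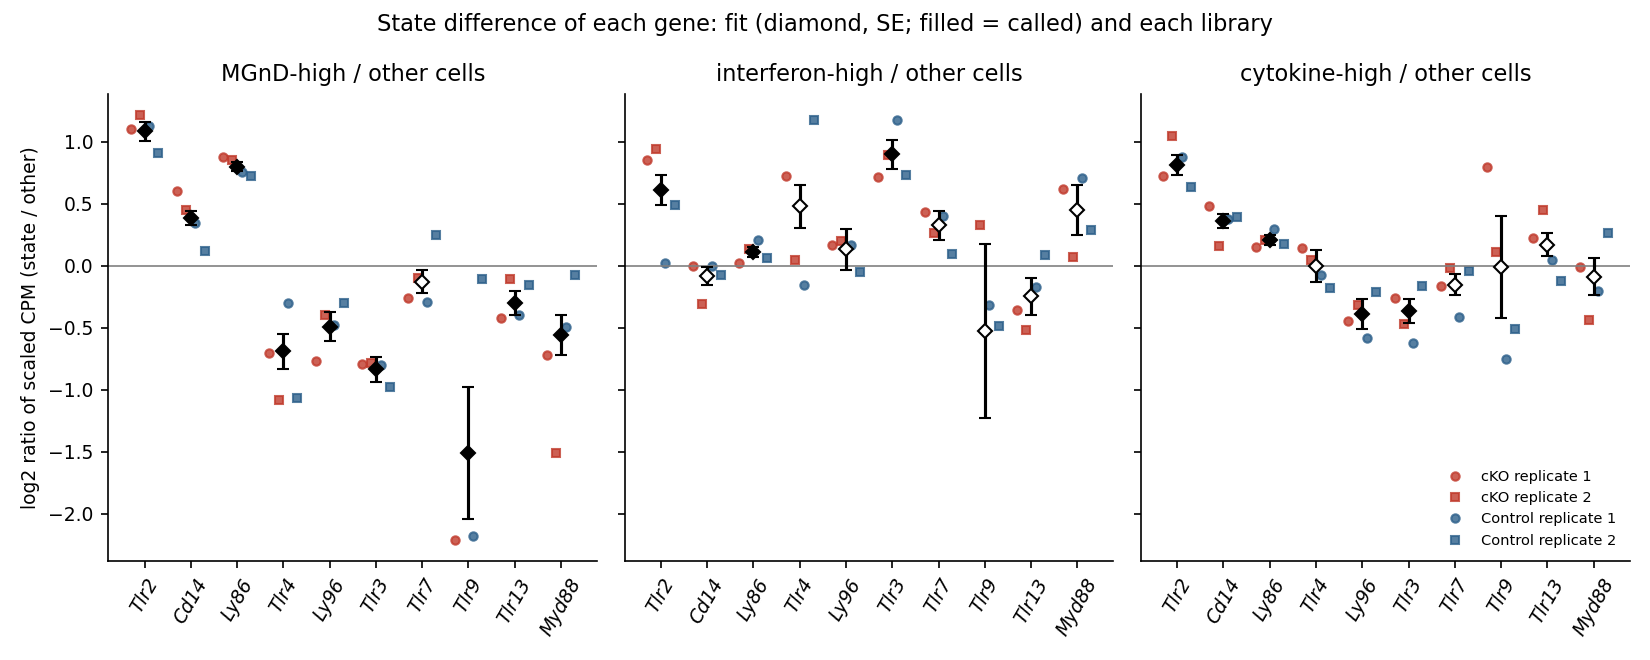
Difference of each gene between state cells and other microglia-like cells, as log2 ratio of scaled CPM, in 3 panels (MGnD-high, interferon-high, cytokine-high); diamonds are the edgeR estimate with its SE, filled where called, and points are single libraries (red cKO, blue Control), with none where a library had 0 UMIs. In the MGnD panel Tlr2 and Ly86 lie above 0 and Tlr3 and Tlr4 below 0 in all 4 libraries, and Cd14 is at 0.077 and Tlr7 called lower where total UMIs replace the scaling; Tlr3 lies above 0 in all 4 libraries of the interferon panel.

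Levels were also read over the number of MGnD genes detected, as a description. Tlr2 averaged 72.99 ± 6.93, 94.7 ± 11.9, 122 ± 15.98 and 159.5 ± 31.98 CPM in cells with 0, 1 to 2, 3 to 4 and 5 or more of the 12 genes (SD over 4 libraries), and in each library it was higher at each further step. Ly86 averaged 1751 ± 61.9, 2027 ± 147, 2552 ± 176 and 2658 ± 364 CPM over the same steps, and in both Control libraries it was lower at the last step than at the one before. Tlr3 averaged 102 ± 4.48, 87.8 ± 7.37, 46.5 ± 5.58 and 41.99 ± 6.62 CPM. Tlr4 averaged 50.5 ± 7.11, 47.7 ± 6.47, 25.8 ± 5.66 and 19.4 ± 6.08 CPM, so most of its difference lay between 1 to 2 and 3 to 4 genes. In each library both steps from 3 genes on were below both earlier steps for Tlr3 and Tlr4. Cd14 averaged 327, 345, 324 and 396 CPM, Tlr7 116, 109.8, 80.2 and 93.9 CPM and Tlr13 87.9, 89.1, 57.7 and 61.8 CPM, with no steady order.

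**Figure D3:**
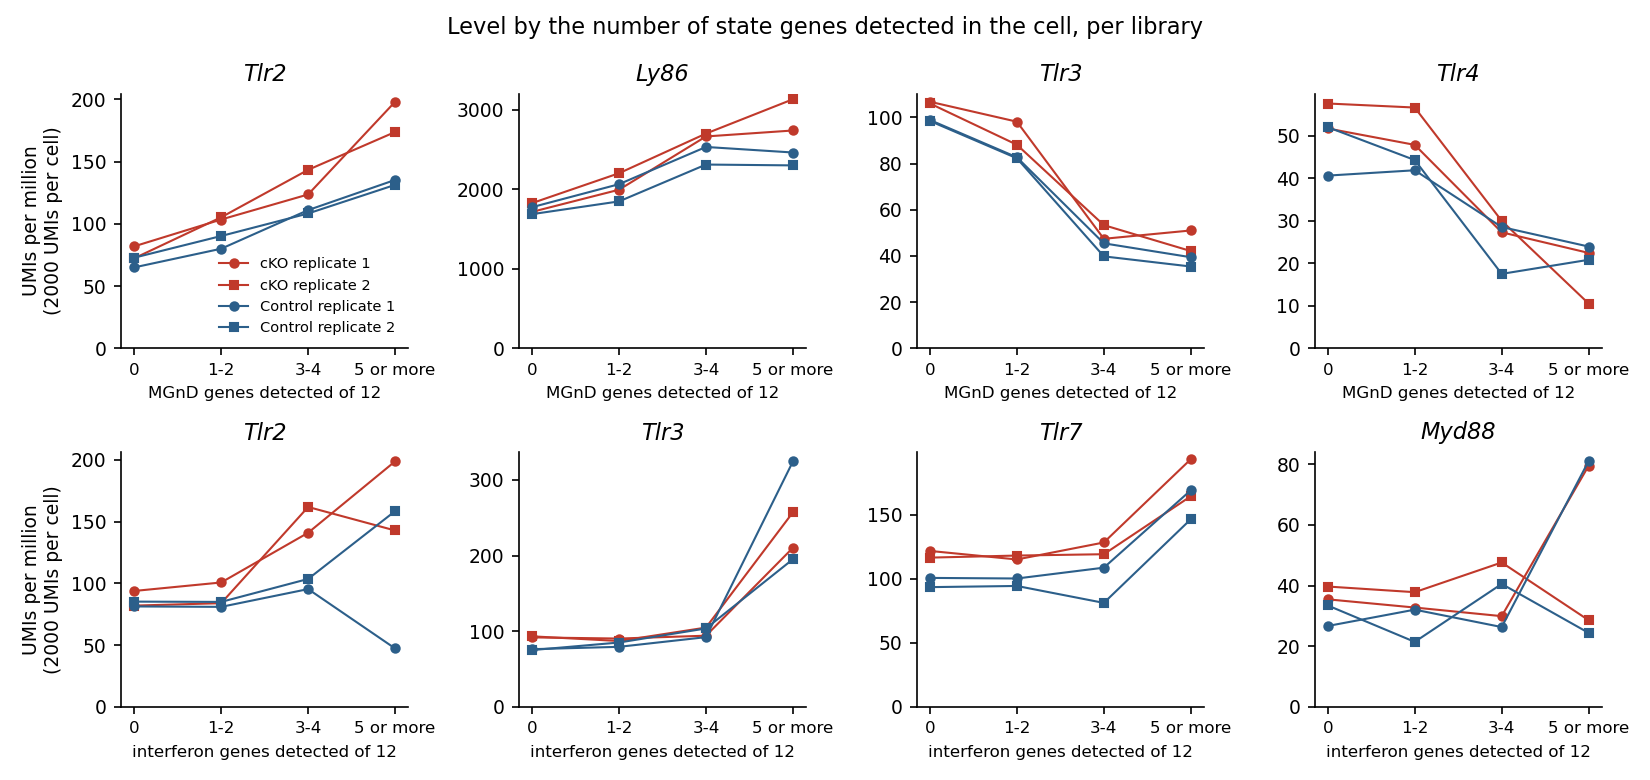
CPM at 2000 UMIs per cell against the number of state genes detected in the cell, with a line per library (red cKO, blue Control); the upper row counts MGnD genes and the lower row interferon genes. Tlr2 climbs with each step of MGnD genes in each library, Tlr3 and Tlr4 are lower at 5 or more MGnD genes than at 0, and Tlr3 is at 195 CPM or more in each library at 5 or more interferon genes.

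Other measures moved with the MGnD state, and their part in these differences was not tested. Median depth before thinning was 9893 to 13112 UMIs in MGnD-high cells and 5864 to 7236.5 in the others. Transcripts of 11 genes known to respond to tissue handling, such as Fos, Jun and Hspa1a, summed to 4203 to 6533 CPM in MGnD-high cells and 10850.4 to 15591 CPM in the others. The 8 markers of border-associated macrophages summed to 6.12 to 16.02 CPM in MGnD-high cells and 2.81 to 4.44 CPM in the others. In MGnD-high cells 4 of 8 were detected (Mrc1, Pf4, Ms4a7 and Folr2), with Cd163, Lyve1, F13a1 and Cbr2 at 0. The 3 markers of endothelial cells summed to 21.9 to 33.4 CPM in MGnD-high cells and 1.06 to 2.55 CPM in the others, with 1 of 3 detected (Flt1) and Cldn5 and Ly6c1 at 0. The 6 markers of T and NK cells summed to 1.81 to 6.12 CPM in MGnD-high cells and 0.343 to 0.873 CPM in the others. In MGnD-high cells 1 of 6 was detected (Klrb1c), with Cd3d, Cd3e, Trbc2, Nkg7 and Gzma at 0. The 3 markers of astrocytes, all detected, summed to 78.4 to 83.7 CPM in MGnD-high cells and 184 to 219 CPM in the others, and 11 markers of microglia, all detected, to 11236 to 12379.8 CPM in MGnD-high cells and 19071 to 22578 CPM in the others. Choroid plexus markers, with 2 of 3 detected and Clic6 at 0, were at 99.5 CPM in MGnD-high cells of cKO replicate 1 and 0.177 CPM in its other cells, and at 0 to 1.81 CPM in MGnD-high cells of the other libraries. With cells that carry 2 markers of another class removed, the same 9 genes were called.

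Of 51 tested genes of a list of the Toll-like receptor pathway, 10 rose and 16 fell in MGnD-high cells, against 20.9% of all genes called higher and 17.7% lower, so the share that rose was near that of all genes. Their median was -0.14, against -0.033 for all genes. On total UMIs 7 rose and 33 fell, and DESeq2 called 9 higher and 8 lower. The lysosomal proteases Ctsb (log2 1.64), Ctsl (1.25) and Ctss (0.48) rose, as did Hsp90b1 (0.48), a chaperone of Toll-like receptors. The protease Lgmn (-0.53), the carrier Unc93b1 (-0.49), the kinase adaptor Tab2 (-0.69) and the phosphatase Dusp1 (-0.49) fell. The largest adjusted p of these 8 genes was 1.48e-09. Of the 4 tested adaptors beside Myd88, 3 fell, which were Tirap (-0.68), Ticam2 (-0.67) and Pik3ap1 (-0.35), named after their values were seen. Ticam1, the adaptor of Tlr3, was at 0.078 (SE 0.24, adjusted p = 0.834).

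In interferon-high cells Tlr3, Tlr2 and Ly86 rose and none of the 10 genes fell. Of 10615 genes tested, 5.68% were called, 4.34% higher and 1.34% lower, against 3 higher and 0 lower of the 10. In scaled CPM, 5 of the 10 were higher in every library (Tlr2, Tlr3, Tlr7, Ly86 and Myd88), against 10.3% of all genes, and 0 were lower in every library, against 11.1% of all genes. The median log2 fold change was 0.23 for the 10 genes and -0.018 for all.

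Tlr3 had 147 and 161 scaled CPM in interferon-high cells of cKO and 172 and 136 in those of Control, against 89.7 and 86.3 in the other cells of cKO and 76.3 and 81.4 in those of Control. The groups did not overlap (log2 0.90, SE 0.12, adjusted p = 5.78e-13), and Tlr3 was called under all 14 alternatives, at 0.51 to 1.25. Over the number of interferon genes detected it averaged 84.04 ± 9.78, 85.4 ± 4.59, 98.6 ± 6.49 and 247 ± 58.1 CPM with 0, 1 to 2, 3 to 4 and 5 or more of 12 genes (SD over 4 libraries). The last step held 273 cells, with no fewer than 41 in a library.

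Tlr2 had 169 and 149 scaled CPM in interferon-high cells of cKO and 81.7 and 125 in those of Control, against 93.8 and 77.9 in the other cells of cKO and 80.6 and 88.97 in those of Control. Control replicate 1 was nearly level between its groups, and over all libraries Tlr2 rose (log2 0.61, SE 0.12, adjusted p = 2.17e-05). The call ended without cKO replicate 1 (0.50, adjusted p = 0.0621), in cells of neither other state (0.39, adjusted p = 0.306) and at 1000 UMIs per cell (0.12, adjusted p = 0.935). Ly86 averaged 2085 ± 140.2 scaled CPM in interferon-high cells and 1931 ± 37.96 in the others (log2 0.11, SE 0.037, adjusted p = 0.0472). That call ended when any 1 library was left out (adjusted p = 0.0574 to 0.374), and it held in 4 of 15 settings (adjusted p up to 0.988).

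Tlr7 averaged 132 ± 22.5 scaled CPM in interferon-high cells and 106 ± 9.33 in the others and was higher in 4 of 4 libraries (log2 0.33, SE 0.12, adjusted p = 0.0745). Myd88 averaged 43.7 ± 6.63 scaled CPM in interferon-high cells and 32.5 ± 3.92 in the others and was also higher in 4 of 4 libraries (log2 0.45, SE 0.20, adjusted p = 0.236). Neither passed at 2000 UMIs per cell, but with all UMIs of the same cells Tlr7 was called at 0.28 (adjusted p = 1.98e-04) and Myd88 at 0.33 (adjusted p = 0.0121). With RLE factors Tlr7 was called too (adjusted p = 0.0498). Tlr4 was at 0.48 (SE 0.17, adjusted p = 0.0807), with 34.05 scaled CPM in interferon-high cells of Control replicate 1 and 93.9 in those of Control replicate 2. It was called without Control replicate 1 (0.66, adjusted p = 0.0233), without cKO replicate 2 (0.63, adjusted p = 0.0308) and in cells of neither other state (0.63, adjusted p = 0.0484). Cd14 (-0.081), Ly96 (0.13), Tlr13 (-0.25) and Tlr9 (-0.52) were not called. With all UMIs of the same cells Cd14 was called lower (-0.15, adjusted p = 0.0178), and its values were below 0 in all 15 settings.

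The 7 markers of monocytes summed to 19.7 to 42.9 CPM in interferon-high cells and 5.72 to 10.8 CPM in the others. In interferon-high cells 5 of 7 were detected (Ccr2, Plac8, Vcan, Fn1 and S100a4), with Ly6c2 and Chil3 at 0. Chil3 was at 0 in the others too, and the part of these transcripts in the differences was not tested. The 3 endothelial markers summed to 9.76 to 14.3 CPM in interferon-high cells and 3.60 to 9.11 CPM in the others, again from Flt1 with Cldn5 and Ly6c1 at 0. With cells that carry 2 markers of another class removed, Tlr3 was at 0.92 (adjusted p = 1.76e-10). Of 51 tested pathway genes, 9 rose and 1 fell in interferon-high cells, against 4.34% of all genes called higher and 1.34% lower. The 10 calls became 6 with 1 state gene more, 6 in cells of neither other state, 3 at 1000 UMIs and 17 with all UMIs. Irf7, an interferon regulatory factor, rose by a log2 fold change of 3.64 (adjusted p = 5.13e-100), and the adaptor Pik3ap1 by 0.96 (adjusted p = 5.20e-17). The cells were chosen by interferon genes, and whether Toll-like receptor signals had a part in these rises was not tested. Ctsb (0.27) and Ctss (0.17) rose too. Neither was called with 1 state gene more (adjusted p = 0.262 and 0.0811) or at 1000 UMIs (-0.015 and 8.6e-04, adjusted p = 0.979 and 0.999), nor Ctsb in cells of neither other state (adjusted p = 0.189). Dusp1 (-0.22), also a handling gene, fell and was called in 6 of 15 settings. Its adjusted p values were 0.0618 to 0.251 when a library was left out.

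In cytokine-high cells Tlr2, Cd14 and Ly86 rose and Tlr3 and Ly96 fell. Of 10533 genes tested, 8.64% were called, 5.84% higher and 2.8% lower, against 3 higher and 2 lower of the 10. The 3 called higher were higher in every library in scaled CPM, against 12.3% of all genes, and 3 genes (Tlr3, Tlr7 and Ly96) were lower in every library, against 11.5% of all genes. Tlr2 had 147 and 147 scaled CPM in cytokine-high cells of cKO and 135 and 129 in those of Control, against 88.8 and 70.99 in the other cells of cKO and 73.6 and 83.1 in those of Control. The groups did not overlap (log2 0.82, SE 0.082, adjusted p = 5.13e-21). Cd14, the co-receptor, averaged 409 ± 45.97 scaled CPM in cytokine-high cells and 318 ± 9.02 in the others (log2 0.36, SE 0.054, adjusted p = 1.80e-09), and both Tlr2 and Cd14 were called under all 14 alternatives. Ly86 averaged 2195 ± 129 scaled CPM in cytokine-high cells and 1899 ± 36.6 in the others (log2 0.21, SE 0.039, adjusted p = 5.35e-06), but not called with 1 state gene more (0.11, adjusted p = 0.464) or in cells of neither other state (0.10, adjusted p = 0.0508).

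Tlr3 averaged 70.3 ± 10.8 scaled CPM in cytokine-high cells and 90.7 ± 5.58 in the others (log2 -0.36, SE 0.097, adjusted p = 0.00378). Ly96 averaged 44.2 ± 5.65 scaled CPM in cytokine-high cells and 57.5 ± 1.19 in the others (log2 -0.39, SE 0.12, adjusted p = 0.0223). Both were lower in 4 of 4 libraries. Without Control replicate 1 neither was called (-0.29 and -0.33, adjusted p = 0.0953 and 0.186), nor with DESeq2 (adjusted p = 0.168 and 0.353) or at 1000 UMIs (adjusted p = 0.564 and 0.735). Tlr3 was thus called in 12 of 15 settings and Ly96 in 8 of 15. Ly96 was also not called without cKO replicate 1 (-0.37, adjusted p = 0.125), in cells of neither other state (adjusted p = 0.214), with all UMIs (adjusted p = 0.0698) and with 1 state gene more (-0.11, adjusted p = 0.929). Tlr4 (-2.5e-04), Tlr7 (-0.15), Tlr9 (-0.012), Tlr13 (0.17) and Myd88 (-0.086) were not called.

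Over the number of cytokine genes detected, Tlr2 averaged 73.1 ± 6.29, 75.9 ± 8.32, 91.7 ± 15.1, 123 ± 6.07 and 175 ± 50.04 CPM with 0, 1, 2, 3 and 4 or more of 8 genes (SD over 4 libraries). Cd14 averaged 318 ± 21.2, 314 ± 19.9, 338 ± 15.1, 378 ± 51.7 and 462 ± 38.2 CPM over the same steps. The means of both genes were close between 0 and 1 gene and highest at 4 or more. Handling transcripts summed to 7799 to 12633 CPM in cytokine-high cells and 9732 to 15113 CPM in the others, and median depths were 7328 to 9075 UMIs in cytokine-high cells and 6198 to 7308 in the others. The 3 endothelial markers summed to 8.62 to 16.6 CPM in cytokine-high cells and 3.52 to 8.01 CPM in the others, from Flt1 with Cldn5 and Ly6c1 at 0, and the 11 microglial markers to 15311 to 16902 CPM in cytokine-high cells and 17959.7 to 20804 CPM in the others. The part of these measures was not tested.

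Of 51 tested pathway genes, 10 rose and 3 fell in cytokine-high cells, against 5.84% of all genes called higher and 2.8% lower. These 13 calls became 7 to 8 when any 1 library was left out, 5 with DESeq2 and 3 at 1000 UMIs. Ctsb (0.51), Ctsl (0.38), Irf7 (0.83) and the NF-kB inhibitor Nfkbia (0.38) rose, and Lgmn (-0.16), Tab2 (-0.25) and the kinase Btk (-0.31) fell. Ctsb and Ctsl were called in all 15 settings and Nfkbia in 14 of 15, with an adjusted p up to 0.0681. Irf7 was called in 11 of 15 settings (adjusted p up to 0.835, in cells of neither other state) and Lgmn in 13 of 15 (up to 0.144). Tab2 was called in 9 of 15 settings (up to 0.409) and Btk in only 5 of 15 (up to 0.873, with 1 state gene more).

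The states overlap, since 4.43% and 3.07% of cells in cKO and 4.84% and 6.01% in Control were both MGnD-high and cytokine-high. Among cells of neither other state the MGnD differences were 1.05 for Tlr2, 0.82 for Ly86, -0.87 for Tlr3 and -0.86 for Tlr4, each still called. The cytokine difference of Tlr2 was 0.66 there (adjusted p = 1.81e-06), and the interferon difference of Tlr3 was 0.91 (adjusted p = 3.59e-10).

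How the genes vary together is described over 16 profiles, the 4 libraries by 4 exclusive states (MGnD-high only, interferon-high only, cytokine-high only and none). Profiles of a library share its depth and run, so these Pearson correlations of log2 CPM are given without a test. Some profiles also hold few UMIs. Over all 4 libraries Myd88 had 47 UMIs in MGnD-high only and 44 in interferon-high only cells, and Tlr4 had 60 and 68. Correlations of such genes therefore carry counting error. Tlr3 and Myd88 had r = 0.84, Tlr3 and Ly96 0.73, Tlr4 and Ly96 0.70 and Tlr4 and Myd88 0.67. Ly86 ran against Myd88 (-0.79) and Tlr4 (-0.78), and Tlr2 against Tlr3 (-0.63). Among 7272 genes the profiles most like Ly86 were those of Itgax (0.97), Calr (0.97) and Mpeg1 (0.96), of which Itgax is an MGnD gene that defined the profiles. Those most like Tlr2 were Gla (0.94), Cd72 (0.93) and Gpr65 (0.89), and those most like Tlr3 were Capza2 (0.95), Trim56 (0.95) and Nsd3 (0.94). Those most like Myd88 were Mterf3 (0.94), Arhgap4 (0.93) and Rhoh (0.93), and those most like Tlr4 were Fmnl2 (0.93), Cd79b (0.89) and Gp9 (0.88). For Tlr7 they were Trmt10c (0.83), Ppt2 (0.82) and Map2k4 (0.82), for Tlr13 Itga6 (0.82), Il6 (0.79) and Sin3a (0.78), for Cd14 Klhl24 (0.83), Cdpf1 (0.81) and Wdr36 (0.80) and for Ly96 Myom1 (0.85), Acvr2a (0.84) and Bicral (0.83). Tlr9 was too low for this comparison.

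Between cKO and Control no gene of the set was called. Of 13380 genes tested in the summed UMIs of microglia-like cells, 0.0299% were called, and 0 of the 10, also with DESeq2. The values of 8 of the 10 genes lay above 0, against 51.4% of all genes, and the median log2 fold change was 0.14 for the 10 genes and 0.0057 for all. At an unadjusted p under 0.05 there were 3 of the 10 (Myd88, Tlr4 and Ly96), against 7.68% of all genes. In scaled CPM, 6 genes had both cKO values above both Control values (Tlr3, Tlr4, Tlr7, Tlr13, Ly96 and Myd88), against 19.8% of all genes, and Ly86 had both below, against 19.7% of all genes. The MGnD-high share was lower in cKO, and its part in these values was not tested. In the thinned sums of cells that were not MGnD-high, Tlr3, Tlr7, Tlr13 and Myd88 kept that order. There the groups overlapped for Tlr4, and Ly96 was at 53.6 and 53.9 scaled CPM in cKO and 54.9 and 56.2 in Control.

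Myd88 had the smallest p of the set. It was at 33.2 and 38.1 scaled CPM in cKO and 28.6 and 27.1 in Control, so the groups did not overlap (log2 0.35, SE 0.093, unadjusted p = 0.00415, edgeR adjusted p = 0.501). Without Control replicate 1 it was at 0.39 (adjusted p = 0.349). It passed without cKO replicate 1 (0.45, adjusted p = 0.0242), in a fit that calls 417 of all genes against 4 with all libraries. Only the Control libraries give the spread there, and the lone cKO library, the one with its own run code, is assumed to vary like them. It also passed with no filter on low counts (adjusted p = 0.0268), where 358 genes were called. Over these and the other settings it ran from 0.25 to 0.45.

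Myd88 lies on chromosome 9 (119335934 to 119341411, minus strand, GRCm38), 0.560 Mb from Cx3cr1, the fractalkine receptor gene. Cx3cr1 was at 2297 and 2668 CPM in cKO and 4557 and 3652 CPM in Control (log2 -0.81, SE 0.15, adjusted p = 0.341). Of 28 tested genes within 1 Mb of Cx3cr1, Myd88 included, 15 had values above 0 and 13 below, from -1.10 to 1.05 with a median of 0.038. Tlr9, also on chromosome 9, lies 13.7 Mb away and was at -0.016 (SE 0.18). Myd88 overlaps Slc22a14 on its own strand and Acaa1a on the other, so the source of its reads is uncertain where they overlap.

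Tlr4 was at 41.4 and 42.02 scaled CPM in cKO and 34.98 and 36.2 in Control (log2 0.23, SE 0.075, adjusted p = 0.595), and Ly96 at 53.4 and 56.96 scaled CPM in cKO and 50.6 and 47.02 in Control (log2 0.18, SE 0.077, adjusted p = 0.645). Without Control replicate 1 they were at 0.20 and 0.23. With each cell thinned to 2000 UMIs Ly96 was at -0.035, so its sign depends on the depth used. Tlr3 was at 0.15 (SE 0.074), Tlr7 at 0.14 (SE 0.076) and Tlr13 at 0.14 (SE 0.071), with adjusted p values of 0.665, 0.680 and 0.666. Without Control replicate 1 these 3 endosomal receptors were at 0.10, 0.18 and 0.11, and Tlr9 at 0.018.

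Ly86 had 1966 and 1944 scaled CPM in cKO and 2058 and 2024 in Control (log2 -0.062, SE 0.12, adjusted p = 0.930), -0.052 without Control replicate 1, and on total UMIs, which shift the median of all genes by 0.082, it was at 0.021. Tlr2 had 102 and 92.6 scaled CPM in cKO and 84.1 and 96.4 in Control, overlapping groups with a log2 fold change of 0.11 (SE 0.091). It was at 0.0090 without Control replicate 1 and at 0.21 with MGnD-high cells left out. Cd14 was at 0.053 (SE 0.089), and at 0.065 without Control replicate 1. An approximate 95% interval of the log2 fold change was -0.070 to 0.29 for Tlr2, -0.12 to 0.23 for Cd14 and -0.30 to 0.18 for Ly86. It was made from the estimate and SE under a normal distribution, which is too narrow with so few libraries. Handling transcripts summed to 10941 and 14403 CPM in cKO and 10482 and 8795 CPM in Control, and their part in these values was not tested. Of 55 tested pathway genes 0 were called, against 0.0299% of all genes, and 42 had values above 0, against 51.4%. Without cKO replicate 1 the count called was 5, without Control replicate 2 it was 1, with no filter on low counts 3, and 0 without either other library.

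**Figure D4:**
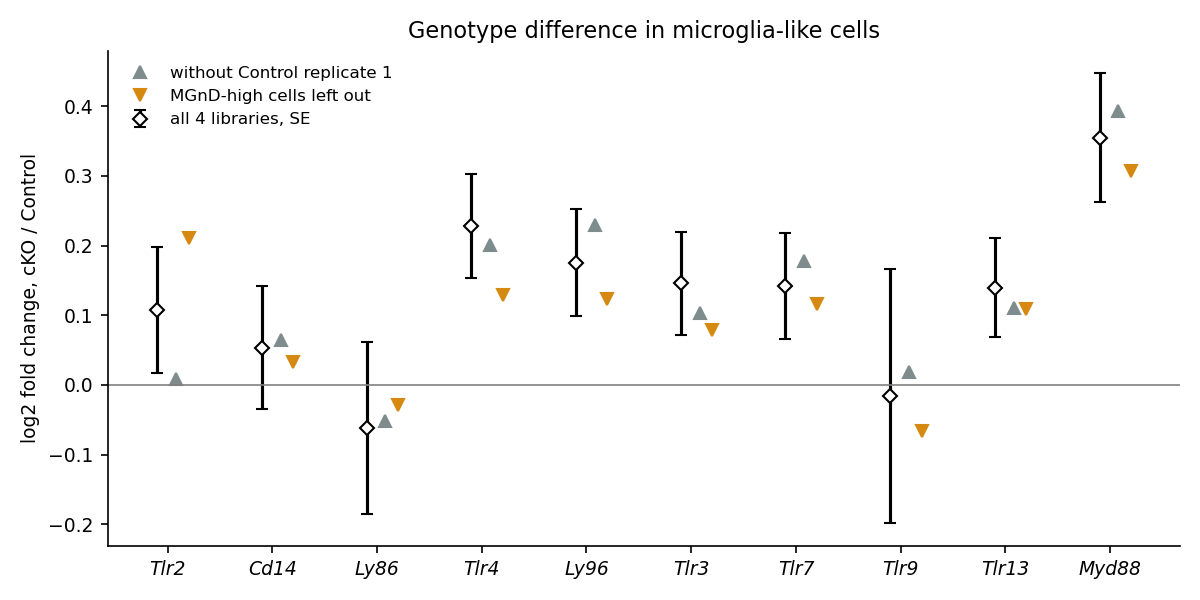
Log2 fold change of each gene between cKO and Control in microglia-like cells; diamonds are the edgeR estimate from all 4 libraries with its SE, and the other markers are the estimates after leaving out either Control replicate 1 or the MGnD-high cells. Myd88 has the highest estimate of the 10 genes in each of the 3 fits, from 0.31 to 0.39, and none of the 10 was called in these fits.

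Whether the state differences depend on genotype was tested as an interaction in the same sums. None of the 10 genes was called for any of the 3 states, where 0%, 0% and 0.019% of all genes were called for the MGnD, interferon and cytokine states. At an unadjusted p under 0.05 there were 1, 1 and 1 of the 10, against 4.9%, 4.53% and 5.29% of all genes, and DESeq2 called 0 genes for each state. The MGnD difference of Cd14 was larger in cKO by 0.30 on the log2 scale (SE 0.10, unadjusted p = 0.00621, edgeR adjusted p = 0.902). The interferon difference of Tlr2 was larger in cKO by 0.65 (SE 0.24, unadjusted p = 0.00705, adjusted p = 1), and the cytokine difference of Tlr13 by 0.36 (SE 0.18, unadjusted p = 0.0489, adjusted p = 0.920). Intervals were wide, such as -1.30 to 0.048 for the change of the MGnD difference of Myd88.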

How the data were processed

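The values used are whole-number UMI counts, not normalized, from unfiltered matrices that the authors deposited; the submitters' processing notes name Cell Ranger 4.0.0 and mm10. The deposited barcode and feature files hold names only (other). Libraries are 10x Genomics 3′ v3.1, per the labels' protocols. Barcodes were filtered as given in the text above. The highest Scrublet scores were removed at 0.8% per 1000 cells, because its own threshold called 0 or 1 doublets a library. Cells were clustered with scanpy 1.11.5 (2000 variable genes, 30 principal components, leidenalg 0.10.2 at resolution 1) and named from marker genes, and rebuilt names may differ from the study's. One marker of the microglial list is not reported here. Depth varies between libraries, and 2000 UMIs were drawn per cell for state calls and detection, which left out 24 to 47 shallower cells a library.

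With 2 libraries a group, p-values reflect the spread between these libraries, which the labels call biological replicates. edgeR shares information on that spread between genes, and in the interferon and cytokine state fits it was pooled over all genes. A small p-value there does not show that a gene's own libraries agree. Counts were summed per library and tested with edgeR 4.0.16 in R 4.3.3 (TMM, filterByExpr, quasi-likelihood, two-sided, Benjamini-Hochberg at 0.05). DESeq2 1.42.0, RLE factors, other filters, thresholds and left-out libraries were alternatives, of which total UMIs and unthinned state sums were added after the data were seen. The fits were also run on simulated counts, with the same spread for all genes and no effect of a library or run. That run cannot show how the fits behave with the spread of these libraries. All 10 genes are named, of the pathway list of 58 genes up to 4 called genes per direction with the smallest p, and 3 genes of most similar profile per member. The members, lists and state genes were chosen with earlier results of these data known. Positions and 3′ UTRs are from GENCODE M21 (GRCm38).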

Additional observations from a re-analysis of the deposited data

How the results depend on the processing

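The counts of called genes of the set moved as follows. For genotype the count was 0, and 1 with no filter on low counts, with a range of 0 to 1 when a library was left out. For MGnD-high cells it was 9, and 5 at 1000 UMIs per cell, with a range of 6 to 10. For interferon-high cells it was 3, then 1 at 1000 UMIs and 6 with all UMIs of the same cells, with a range of 1 to 3. For cytokine-high cells it was 5, then 3 with DESeq2, with 1 state gene more, in cells of neither other state and at 1000 UMIs, with a range of 3 to 5. The cause was not tested. At 1000 UMIs per cell fewer UMIs are left, shallower cells enter and the states were called anew at that depth, so the compared cells differ too.

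Signs reversed as follows (log2 fold changes). In the genotype fit Tlr9 was at 0.062 on total UMIs, 0.039 in all barcodes past the filter and -0.21 to 0.15 when a library was left out, Ly86 at 0.021 on total UMIs and Ly96 at -0.035 with thinned cells. For MGnD-high cells Tlr7 was at 0.14 at 1000 UMIs. For interferon-high cells at 1000 UMIs Tlr4 was at -0.025, Tlr9 at 0.096, Ly96 at -0.29 and Ctsb at -0.015, and with 1 state gene fewer Ly96 was at -0.059. For cytokine-high cells Tlr4 was at 0.0068 with RLE factors, 0.030 in cells of neither other state, 0.065 without cells of other-class markers and -0.066 to 0.050 when a library was left out. Tlr9 was at 0.093 in cells of neither other state and -0.38 to 0.22 when a library was left out. Myd88 was at 0.012 with 1 gene more, 0.081 at 1000 UMIs and -0.19 to 0.023 when a library was left out, and Btk at 0.14 at 1000 UMIs.

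Over all genes the genotype fit called 4, with 417 or 8 when cKO replicate 1 or 2 was left out, 86 or 136 when it was Control replicate 1 or 2, 26 with DESeq2, 358 with no filter and 0 in all barcodes. With the replicate numbers as a block it called 8 genes and 0 of the set. Deviations of same-numbered samples correlated at -0.091. With 2 libraries a group this is a single value with either sign, so it cannot tell whether a replicate number marks a shared litter or day. The labels do not say so. For MGnD-high cells edgeR called 4141 genes, DESeq2 2585 and edgeR at 1000 UMIs 2560. For interferon-high cells these counts were 603, 355 and 286, with 335 in cells of neither other state and 363 without cKO replicate 1. For cytokine-high cells they were 910, 389 and 333, with 285 for 1 state gene more and 237 in cells of neither other state. On total UMIs 42 genes were called for genotype. The share of calls that were higher was 63.6% on total UMIs and 76.5% with TMM for interferon-high cells, and 49.9% and 67.6% for cytokine-high cells. Of the pathway list, cytokine-high calls fell to 4 with 1 state gene more and in cells of neither other state, and to 7 on total UMIs and with no filter.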
